A study of Saccharomyces cerevisiae with 24 samples.

Results

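Transcript levels in yeast cells lacking the histone methyltransferase Set2 were compared with those of WT cells after 3 h in minimal medium. The comparison took the 4 libraries labelled set2Δ 3 h and WT 3 h, 2 of each, out of 24 in the series, and covered 6503 genes with enough reads out of 7126 in the table. The 24 libraries were RNA sequencing of Saccharomyces cerevisiae strain CEN.PK of 4 genotypes (set2Δ, H3K36A, rph1Δ and WT), sampled in rich medium (YPL) at 0 h and in minimal medium (SL) at 1 h and 3 h, with 2 libraries per group. The set2Δ cells carry a deletion of SET2, and the WT cells differ from them by no other allele in the labels. The libraries labelled H3K36A, set beside set2Δ at 3 h, come by their label from cells with an alanine in place of lysine at that residue in both histone H3 genes, and set2Δ and WT at 0 h and 1 h served to place the 3 h values in time. All cells had grown to log phase in YPL, and those of 1 h and 3 h had been washed once and moved to SL. How many clones each genotype comes from, and whether the 2 libraries of a group are separate cultures, is not stated, so p-values measure only the spread between these samples, which may be technical.

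Set2 travels with elongating RNA polymerase II and methylates lysine 36 of histone H3 over the bodies of transcribed genes. The mark is read by the Rpd3S deacetylase complex, through Eaf3 and Rco1, and by the Isw1b remodeler, through Ioc4, and these keep nucleosomes over coding regions deacetylated and in place. In yeast that lack Set2, transcription is known to start at cryptic promoters inside genes and on the opposite strand, and long, rarely transcribed genes are known to depend on the pathway most.

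SET2 (YJL168C, sacCer3 chromosome X, 102227 to 104428, minus strand) held 0 and 0 counts in the set2Δ 3 h libraries, against 153 and 151 counts in the WT 3 h libraries. It held 0 counts over all 6 set2Δ libraries of the series. With a floor of 3 counts over the group, its level was at least 121-fold lower in set2Δ at 3 h. Of 6 tested genes within 5000 bases of SET2, 3 were called at 3 h, beside 48.4% of all genes tested, and 1 of them changed more than 2-fold. That gene was ASG7, an a-specific gene that lies 448 bases from SET2. It held 17 and 17 counts in set2Δ, against 95 and 98 counts in WT, a log2 change of -2.75 ± 0.27 (edgeR quasi-likelihood test, adjusted p = 1.88e-08), while H3K36A cells stood at -0.46 against WT at 3 h (adjusted p = 0.0883). The other called neighbours were ERG20 (-0.21 ± 0.07) and TOH1 (-0.36 ± 0.11). With library totals in place of TMM scaling, ERG20 stood at 0.04 and was not called. At 0 h ASG7 went the other way, with 40 and 38 counts in set2Δ and 19 and 18 counts in WT (edgeR adjusted p = 0.0185), and at 1 h its log2 change was -1.25 (edgeR adjusted p = 7.32e-05). Whether the deletion itself acts on ASG7 was not tested.

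The 4 libraries held 6950652 to 7189126 counts each. The WT 3 h replicates lay further apart than the set2Δ 3 h replicates, with a chi-square statistic, divided by its degrees of freedom, of 3.66 in set2Δ and 13.1 in WT over genes with at least 20 counts. The cells of both groups expressed the a-specific genes that mark haploid a cells. Their 7 genes summed to 2298 and 2372 counts in set2Δ and to 1506 and 1494 counts in WT, and the 4 alpha-specific genes to 312 and 349 counts in set2Δ and to 276 and 246 counts in WT.

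Many genes differed between set2Δ and WT at 3 h, most of them by little. At a Benjamini-Hochberg adjusted p under 0.05 in the edgeR quasi-likelihood test, 3148 genes were called (48.4% of those tested), 1337 higher (20.6%) and 1811 lower (27.8%). Of these, 325 genes (5.0%) were higher by at least 2-fold and 196 (3.01%) lower by at least 2-fold, and the median log2 change over all tested genes was -0.06. The split depended on the scaling. With library totals in place of TMM factors the all-gene median moved to 0.17 and 2323 genes were called higher and 783 lower, so the direction of small changes is relative to the scaling, and changes of gene groups are read below against the all-gene median and against the 20.6% and 27.8% of all genes. The count of calls was 2259 without WT replicate 2.

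The highest named genes included transporters, regulators of cell polarity and a helicase of ribosome assembly. PUL3, a putative membrane transporter gene (YNR062C, chromosome XIV, 744360 to 745343), held 282 and 358 counts in set2Δ, against 1 and 0 counts in WT, a ratio of 536 with a 95% counting interval from 95.8 to 21200. DRS1, an RNA helicase needed for the large ribosomal subunit, stood at 261.7 and 287.6 CPM (counts relative to the TMM-scaled library size) in set2Δ and at 41.6 and 31.8 CPM in WT. Its log2 change was 2.90 ± 0.14 (adjusted p = 2.65e-14). Both set2Δ libraries lay above both WT libraries for each of these genes, as the rule for naming required. BNR1, a formin that builds actin cables, had 135.1 and 134.3 CPM in set2Δ and 21.6 and 19.3 CPM in WT (2.72 ± 0.10, adjusted p = 1.27e-15). GIC2, an effector of the polarity GTPase Cdc42, had 11.1 and 14.7 CPM in set2Δ and 1.88 and 1.86 CPM in WT (2.77 ± 0.42). SWE1, the kinase that restrains entry into mitosis, rose by 2.12 ± 0.23 on the log2 scale.

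Among the other high genes, PDR12, an exporter of weak organic acids, rose by 2.39 ± 0.16, BIO5, an importer of biotin precursors, by 2.28 ± 0.29, and FIG2, a cell wall adhesin, by 2.16 ± 0.17. PPR1, the transcription factor of pyrimidine synthesis, had 162.0 and 165.7 CPM in set2Δ and 40.8 and 35.0 CPM in WT (2.11 ± 0.10). SPS4, induced in sporulation, rose by 2.08 ± 0.28. JIP3 is a dubious open reading frame on the strand opposite MID2, with 34 and 38 counts in set2Δ and 1 and 0 counts in WT (a ratio of 60.3, interval 10.5 to 2410). OPT2, an oligopeptide transporter gene named as a list member, stood higher than most of these, with 19.0 and 22.9 CPM in set2Δ and 0.685 and 1.35 CPM in WT (4.34 ± 0.38, adjusted p = 1.42e-09). It was not among the highest named because its mean FPKM in set2Δ was under the 10 that the naming rule asked for.

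The 12 lowest included genes of glycolysis, inositol and vitamin synthesis. TDH1, a glyceraldehyde-3-phosphate dehydrogenase isozyme (YJL052W, chromosome X, 338271 to 339269), had 166.4 and 131.4 CPM in set2Δ, against 1173.2 and 1603.8 CPM in WT. Its log2 change of -3.22 ± 0.15 (adjusted p = 2.65e-14) was the lowest of a protein-coding gene under the naming rule, and the near-identical TDH2 and TDH3 leave the share of each copy uncertain. INO1, the enzyme that makes inositol phosphate from glucose 6-phosphate, had 186.0 and 204.7 CPM in set2Δ and 1037.7 and 808.2 CPM in WT (-2.24 ± 0.10, adjusted p = 2.65e-14). MCH2, a relative of monocarboxylate transporters, had 4.64 and 4.90 CPM in set2Δ and 28.9 and 34.8 CPM in WT (-2.74 ± 0.23). BNA2, the dioxygenase that opens NAD synthesis from tryptophan, fell by 2.11 ± 0.16 on the log2 scale. It overlaps YJR079W.

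GAL7, of galactose use, fell by 2.18 ± 0.27 on the log2 scale, and SDD1 by 2.15 ± 0.16. HED1, which overlaps YDR015C, fell by 2.37 ± 0.35. TIS11, an RNA-binding protein of iron deprivation, fell by 2.09 ± 0.34. THI13 and THI11 fell by 2.75 ± 0.28 and 2.53 ± 0.24 and belong to a near-identical family of thiamine genes, so reads of the copies may be split between them. The lowest fitted value among these 12 was that of the initiator tRNA gene IMT1. It held 0 and 0 counts in set2Δ and 3 and 8 counts in WT, at least 4.38-fold lower. SET2 itself, with a fitted log2 change of -10.53, did not meet the naming rule. ASG7, given above, completes the 12.

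**Figure D1:**
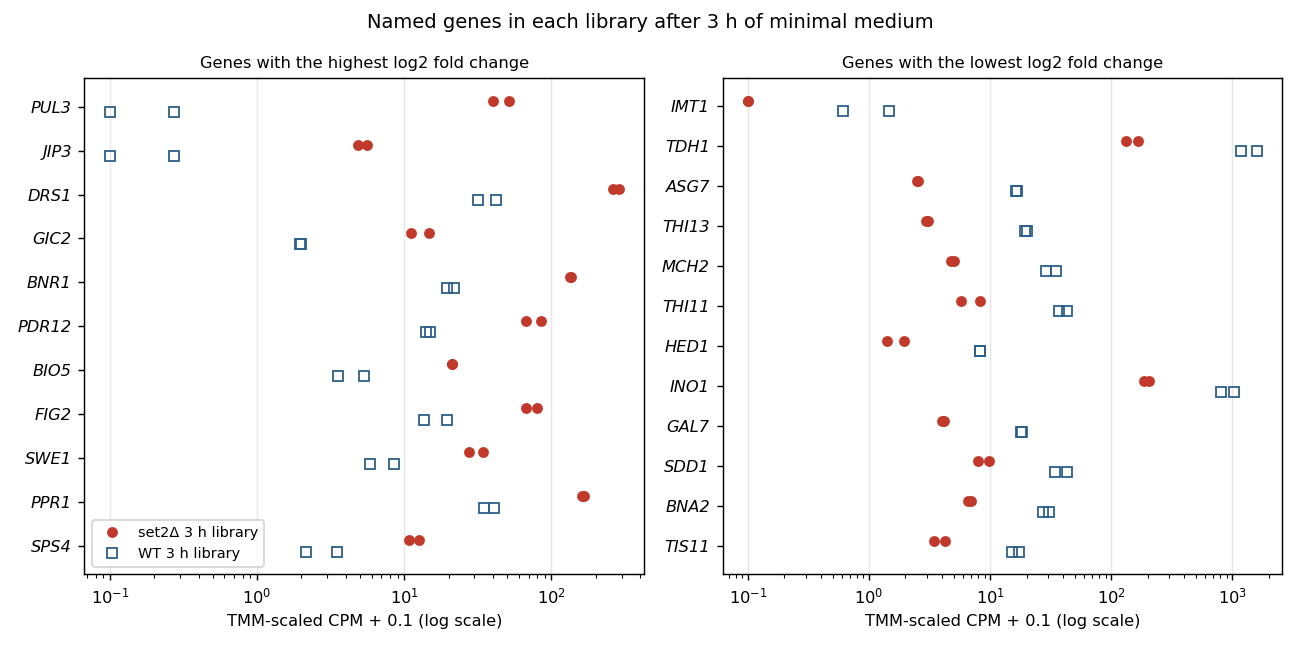
TMM-scaled CPM plus 0.1 (log axis) of 11 of the highest (left) and the 12 lowest (right) named genes, with each set2Δ 3 h library as a filled circle and each WT 3 h library as an open square. In every row the circles and squares do not overlap, and PUL3 and JIP3 lie at or near 0 in WT.

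Cell cycle genes stood higher in set2Δ at 3 h. Of 34 genes of G1 and S phase, 24 were higher and 2 lower (20.6% and 27.8% of all genes), with a median of 0.64. Of 24 genes of G2 and M phase, 18 were higher and 0 lower, with a median of 0.62. The G1 cyclin gene CLN1 had 55.8 and 56.5 CPM in set2Δ and 17.3 and 16.9 CPM in WT (1.72 ± 0.17, adjusted p = 9.7e-09). The fork-head factor gene FKH2, which acts on the genes of mitosis, had 85.9 and 87.4 CPM in set2Δ and 34.9 and 24.5 CPM in WT (1.54 ± 0.15). BUD4, which marks the axial budding site, rose by 1.48 ± 0.12, and CLB6, an S phase cyclin gene at 1.83 and 3.03 CPM in set2Δ and 0.685 and 0.845 CPM in WT, by 1.64 ± 0.66. CLN2 (1.17 ± 0.17), the mitotic cyclin gene CLB2 (1.28 ± 0.18) and SWI5 (0.96 ± 0.13), picked with their values known, were also higher. The 2 lower members were RFA2 (-0.59 ± 0.07) and RFA3 (-0.48 ± 0.19), small subunits of replication protein A. In bulk cultures more cells in a phase and more RNA per cell cannot be told apart. With library trends on gene length removed, an alternative added after the data were seen, 21 were higher and 1 lower in the first list and 16 and 0 in the second.

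The MCB motif, bound by the S phase factor Mbp1, was searched as ACGCGT on both strands in windows from 250 bases before to 50 bases after each gene's start (sacCer3 genome of RefSeq). It was in 9 of the 34 windows of the G1 and S phase genes, 7 of them higher and 1 lower, and in 3.02% of all 6263 windows. In the whole list 24 of 34 were higher and 2 lower, so the motif did not set its members clearly apart. POL2, the catalytic subunit of DNA polymerase epsilon, changed most of the 9. It held 769 and 802 counts in set2Δ and 226 and 216 counts in WT (1.57 ± 0.125, adjusted p = 3.19e-10). Its window (chrXIV:147962-148261, plus strand) is shown with the motif in capitals, 115 bases before the start.
POL2: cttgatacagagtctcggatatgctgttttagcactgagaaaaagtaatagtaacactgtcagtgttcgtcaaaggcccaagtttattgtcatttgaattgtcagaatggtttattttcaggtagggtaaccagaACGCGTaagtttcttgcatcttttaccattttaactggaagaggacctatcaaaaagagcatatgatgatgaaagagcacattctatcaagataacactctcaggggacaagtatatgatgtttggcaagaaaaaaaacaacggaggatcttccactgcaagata

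Protein-protection genes stood lower. Of 25 heat shock chaperone genes, 22 were lower and 0 higher, with a median of -0.37. Of 47 general stress response genes, 32 were lower and 1 higher (median -0.38), and of 28 antioxidant genes, 22 were lower and 1 higher (median -0.44). Of 38 proteasome genes, 29 were lower and 0 higher (median -0.36). The small heat shock protein gene HSP26 had 10819.8 and 10423.8 CPM in set2Δ and 20706.8 and 24051.0 CPM in WT (-1.08 ± 0.10), and the Hsp70 gene SSA4 had 1078.0 and 1066.0 CPM in set2Δ and 2222.3 and 2224.1 CPM in WT (-1.05 ± 0.09). In both genes the libraries of the 2 groups did not overlap. SPI1, a cell wall protein gene, fell by 1.57 ± 0.10 on the log2 scale, the peroxiredoxin gene TSA2 by 1.64 ± 0.17, and the sulfiredoxin gene SRX1 by 2.02 ± 0.40. GPD1 (0.20 ± 0.08), of glycerol synthesis, was the higher stress gene, and it overlaps YDL023C. The peroxisomal catalase gene CTA1 (0.27 ± 0.08) was the higher antioxidant gene. Library totals left 9 chaperone genes lower and 2 higher, 18 stress genes lower and 7 higher, 14 antioxidant genes lower and 4 higher, and 14 proteasome genes lower and 3 higher, with each median below the all-gene median of 0.17.

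Motifs of the factors known to drive these genes were shared within the lists. The Rpn4 motif, searched as GGTGGCA on both strands, was in 28 of 38 proteasome windows, 21 of them of genes called lower and 0 higher, and in 2.92% of all windows. PRE3, a catalytic core subunit, had 603.1 and 566.4 CPM in set2Δ and 816.8 and 1015.3 CPM in WT (-0.65 ± 0.09, adjusted p = 4.29e-06), the lowest of the proteasome list. The stress element of Msn2 and Msn4, searched as AGGGG on both strands, was in 32 of 47 stress windows, 23 of them of genes called lower and 1 higher, and in 22.0% of all windows. In the whole lists 29 of 38 proteasome and 32 of 47 stress genes were lower, so members with the motif were lower about as often. CRG1, a methyltransferase gene, had 52.0 and 50.1 CPM in set2Δ and 124.5 and 170.8 CPM in WT (-1.53 ± 0.13, adjusted p = 6.2e-10), the lowest of those with the element. The windows of PRE3 (chrX:434913-435212, plus strand) and CRG1 (chrVIII:519187-519486, plus strand) are shown with the motifs in capitals, 118 and 76 bases before the start.
PRE3: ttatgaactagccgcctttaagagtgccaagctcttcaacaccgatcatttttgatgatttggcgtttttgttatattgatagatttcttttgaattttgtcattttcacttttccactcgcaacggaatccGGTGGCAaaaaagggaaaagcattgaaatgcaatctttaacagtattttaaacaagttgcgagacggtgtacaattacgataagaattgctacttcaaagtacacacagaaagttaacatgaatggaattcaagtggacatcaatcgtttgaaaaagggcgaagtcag
CRG1: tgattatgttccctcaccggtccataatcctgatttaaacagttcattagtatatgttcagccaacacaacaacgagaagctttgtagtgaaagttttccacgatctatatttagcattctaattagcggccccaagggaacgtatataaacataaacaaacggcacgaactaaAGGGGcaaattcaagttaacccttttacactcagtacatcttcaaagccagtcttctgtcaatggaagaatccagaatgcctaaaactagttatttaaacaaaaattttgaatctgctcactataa

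Carbon metabolism moved in opposite directions by branch. Of 30 genes of glycolysis and hexose transport, 25 were lower and 1 higher, with a median of -0.97, the lowest of the lists with at least 20 tested members. TDH3 had 21310.1 and 20584.2 CPM in set2Δ and 40557.5 and 45626.7 CPM in WT (-1.04 ± 0.11), and the pyruvate decarboxylase gene PDC1 had 2573.5 and 2240.4 CPM in set2Δ and 4362.5 and 4086.1 CPM in WT (-0.81 ± 0.09). The hexose transporter gene HXT7, near-identical to HXT6, fell by 1.76 ± 0.22 on the log2 scale. PDC5, the second pyruvate decarboxylase, was the higher member, with 33.6 and 29.3 CPM in set2Δ and 16.3 and 18.6 CPM in WT (0.85 ± 0.20). TDH3 and PDC1 were picked with their values known.

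Of 19 genes of peroxisomes and beta-oxidation, 12 were higher and 2 lower (median 0.36), with FOX2, the multifunctional beta-oxidation enzyme, at 1404.2 and 1473.2 CPM in set2Δ and 967.6 and 837.6 CPM in WT (0.67 ± 0.08). Of 29 genes of lactate use and gluconeogenesis, 13 were higher and 6 lower (median 0.13). The peroxisomal citrate synthase gene CIT2 had 2580.2 and 2563.3 CPM in set2Δ and 1238.2 and 1177.8 CPM in WT (1.09 ± 0.09), and the carnitine acetyltransferase gene YAT2 rose by 1.00 ± 0.08. FBP1, the gluconeogenic fructose-1,6-bisphosphatase, went the other way, with 2008.2 and 1957.4 CPM in set2Δ and 3483.5 and 3772.5 CPM in WT (-0.87 ± 0.11). The 25 TCA cycle genes (10 higher, 4 lower, median 0.06) and the 37 genes of the respiratory chain and ATP synthase (13 higher, 5 lower, median 0.09) had more higher and fewer lower members than the all-gene shares.

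Phospholipid synthesis leaned lower: of 26 genes, 12 were lower and 3 higher, with a median of -0.28 that was -0.03 with library totals (6 lower and 6 higher). Beside INO1, the lowest was OPI3, the methyltransferase of the last steps of phosphatidylcholine synthesis, with 394.0 and 371.4 CPM in set2Δ and 851.7 and 862.2 CPM in WT (-1.16 ± 0.10, adjusted p = 1.04e-09). NTE1, the phospholipase that breaks phosphatidylcholine down, had 68.6 and 63.8 CPM in set2Δ and 25 and 18.4 CPM in WT (1.61 ± 0.13). The motif of Ino2 and Ino4, the activators of this pathway, was searched as CATGTG on both strands and was in 12 of the 26 windows, 8 of them of genes called lower and 1 higher, and in 7.20% of all windows. INO1, the lowest of the 12, held it 2 times, 243 and 178 bases before the start (chrX:135884-136183, minus strand), shown in capitals.
INO1: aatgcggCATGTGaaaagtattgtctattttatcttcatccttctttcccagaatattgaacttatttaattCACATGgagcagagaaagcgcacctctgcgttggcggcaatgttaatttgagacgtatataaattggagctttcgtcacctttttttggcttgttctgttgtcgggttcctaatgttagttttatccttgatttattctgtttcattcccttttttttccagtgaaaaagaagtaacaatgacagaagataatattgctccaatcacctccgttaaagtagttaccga

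Other lipid genes were mixed. Of 25 ergosterol genes, 13 were lower and 7 higher, with a median of -0.21 that turned to 0.04 with library totals. The sterol reductase gene ERG24 (-0.72 ± 0.09) was the lowest and ECM22 (0.63 ± 0.09), a sterol-responsive transcription factor gene, the highest. Of 15 genes of fatty acid synthesis and elongation, 4 were higher and 4 lower. The acetyl-CoA carboxylase gene ACC1 was the lowest, with 1040.2 and 1332.1 CPM in set2Δ and 2727.0 and 1919.9 CPM in WT (-0.97 ± 0.15), and FAS2, a fatty acid synthase subunit gene, followed (-0.77 ± 0.08). Of 38 autophagy genes, 18 were lower and 6 higher, with a median of -0.23 that turned to 0.02 with library totals.

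Genes of ribosome assembly leaned higher and those of the ribosome itself lower. Of 111 ribosome biogenesis genes, 47 were higher and 20 lower (median 0.13), led by DRS1 and by NOP4, of the large subunit, with 206.9 and 257.8 CPM in set2Δ and 70.2 and 55.8 CPM in WT (1.88 ± 0.13). Of 137 ribosomal protein genes, 53 were lower and 8 higher, with a median of -0.21 that turned to 0.04 with library totals (3 lower and 20 higher) and to 0.02 with the length trend removed (12 lower and 22 higher). Their values ran from -0.74 ± 0.25 in RPL29 to 0.63 ± 0.10 in RPS22B, which overlaps snR44, and many come in near-identical pairs, so how reads fell between the copies is uncertain. Of 39 translation factor genes, 14 were lower and 3 higher, with a median of -0.11 that turned to 0.13 with library totals. The eIF4G genes TIF4632 (1.11 ± 0.14) and TIF4631 (0.70 ± 0.13) were the highest of these.

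Genes of the chromatin pathway itself also differed. Of 10 genes of Rpd3S, Isw1b and other readers of H3K36 methylation, 7 were higher and 2 lower (median 0.47), and 3 and 2 with the length trend removed (median 0.18). RCO1, the Rpd3S subunit, had 60.5 and 62.5 CPM in set2Δ and 31.9 and 29.7 CPM in WT (1.00 ± 0.13), and overlaps YMR075C-A. EAF3, the chromodomain subunit that binds the mark, went the other way, with 290.2 and 281.0 CPM in set2Δ and 356.6 and 435.1 CPM in WT (-0.47 ± 0.11). Of 24 elongation factors and histone chaperones, 10 were higher and 3 lower (median 0.17, and 5 and 4 with the length trend removed), with the remodeler gene CHD1 (1.22 ± 0.15) and HIR2 (1.05 ± 0.09), of a complex that represses histone genes, the highest. Of 11 histone genes, 7 were lower and 2 higher (median -0.36, and 2 lower and 2 higher with library totals), with HTA1 at -0.81 ± 0.09 and HTB2 at 0.57 ± 0.12. Among histone methyltransferases and demethylases (14 genes, 4 higher and 5 lower), BRE2, a subunit of the complex that methylates lysine 4 of H3, rose by 1.33 ± 0.09.

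Of 12 genes known to hold cryptic promoters inside their coding sequence, 9 were higher and 0 lower (median 0.61). The flocculation regulator gene FLO8 held 215 and 208 counts in set2Δ and 90 and 57 counts in WT (1.27 ± 0.21), and AVO1, of the TORC2 complex, had 62.4 and 56.7 CPM in set2Δ and 34.8 and 24 CPM in WT (1.02 ± 0.14). SYF1 (0.11 ± 0.09) and APM2 (0.02 ± 0.12) were not called. The counts are sums over whole genes, so full-length and internal transcripts cannot be told apart. Of 24 flocculins and cell surface genes, 18 were higher and 2 lower, with a median of 1.10, the highest of the lists. FLO1, a flocculin gene whose repeats it shares with relatives, had 11.8 and 12.1 CPM in set2Δ and 1.71 and 1.35 CPM in WT (2.95 ± 0.42). The 2 lower members were NRG2 (-1.07 ± 0.18), a repressor gene, and DSE1 (-0.34 ± 0.09). With the length trend removed, 7 and 0 of the first list were higher and lower, and 19 and 2 of the second.

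Among 30 tested meiosis and sporulation genes, 13 were lower and 5 higher (median -0.56). MEI4, needed for meiotic double-strand breaks, held 3 and 0 counts in set2Δ and 15 and 17 counts in WT, a ratio of 0.0785 with a 95% counting interval from 0.0154 to 0.251. IME4, the RNA methyltransferase gene of meiotic entry, held 30 and 35 counts in set2Δ and 0 and 0 counts in WT, at least 18.1-fold higher. The URS1 motif of the regulator Ume6, searched as GCCGCC on both strands, was in 13 of the 30 windows, 5 of them of genes called lower and 2 higher. It was in 5.14% of all windows and in 12% of those of genes lower by at least 2-fold. In the whole list 13 of 30 were lower, so members with the motif were not lower more often. The window of MEI4 (chrV:239725-240024, minus strand), the lowest member that holds it, is shown with the motif in capitals, 96 bases before the start.
MEI4: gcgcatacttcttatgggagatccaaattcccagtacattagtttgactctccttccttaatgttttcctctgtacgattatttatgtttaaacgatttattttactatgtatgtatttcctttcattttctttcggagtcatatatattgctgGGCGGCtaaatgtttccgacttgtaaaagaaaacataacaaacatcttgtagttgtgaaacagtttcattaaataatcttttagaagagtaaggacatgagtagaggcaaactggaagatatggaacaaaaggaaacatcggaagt

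Mating genes did not move as 1 group: 3 of 7 a-specific genes were higher and 3 lower. STE2, the receptor for alpha-factor, had 119.4 and 119.4 CPM in set2Δ and 54.1 and 45.8 CPM in WT (1.26 ± 0.13), and STE6, the exporter of a-factor, rose by 1.06 ± 0.17. STE3, the receptor for a-factor, held 3 and 8 counts in set2Δ and 52 and 64 counts in WT (-3.63 ± 0.34). It overlaps YKL177W. Of 21 haploid-specific and pheromone genes, 9 were higher and 5 lower (median 0.10), with PRM2, a pheromone-regulated membrane protein gene, at 14.1 and 9.66 CPM in set2Δ and 1.37 and 1.35 CPM in WT (3.11 ± 0.37). The mating type switching endonuclease gene HO rose by 1.86 ± 0.18.

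Nutrient genes were spread over both directions. Of 27 amino acid permease genes, 13 were higher and 3 lower (median 0.29), of 12 lysine genes 7 and 0 (median 0.27), of 15 branched chain genes 6 and 0 (median 0.21), and of 16 arginine genes 8 and 3 (median 0.35). With the length trend removed, the permeases were 11 higher and 4 lower (median 0.12) and the branched chain genes 5 and 3 (median 0.07). The lysine genes were then 7 and 0 (median 0.25) and the arginine genes 9 and 3 (median 0.33). The argininosuccinate synthetase gene ARG1 had 267.2 and 280.1 CPM in set2Δ and 83.2 and 81.6 CPM in WT (1.73 ± 0.08, adjusted p = 2.52e-14). The urea degradation gene DUR1,2 rose by 1.57 ± 0.09 and the allantoin permease gene DAL4 by 1.92 ± 0.27, among 31 genes under nitrogen catabolite repression (11 higher, 8 lower). Of 23 genes of thiamine and vitamin B6, 12 were lower and 4 higher (median -0.54), the transporter gene THI72 (1.30 ± 0.15) and the pyridoxine synthesis gene SNZ1 (0.99 ± 0.09) being the highest. Of 29 purine and one-carbon genes, 15 were lower and 4 higher, with a median of -0.21 that turned to 0.04 with library totals. Of 26 pyrimidine genes, 11 were lower and 6 higher (median -0.23, and 0.01 with library totals), with URA10 at 71.9 and 71.3 CPM in set2Δ and 214.8 and 297.4 CPM in WT (-1.84 ± 0.13).

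**Figure D2:**
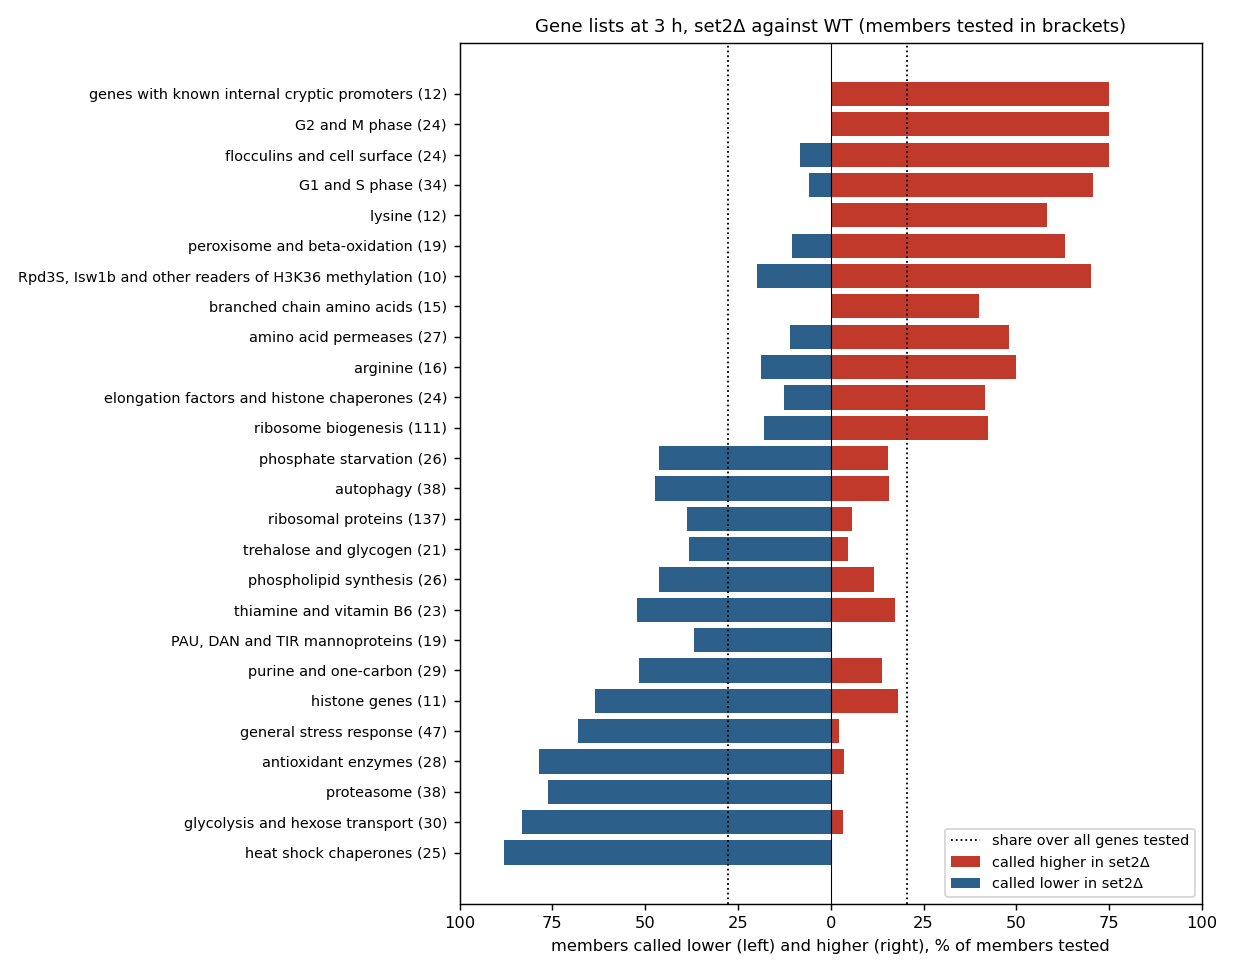
Percentage of the tested members of 26 gene lists called higher (right) and lower (left) in set2Δ against WT at 3 h, by edgeR at an adjusted p under 0.05, with the dotted lines at the all-gene shares of 20.6% and 27.8%. Cell cycle, cryptic promoter and cell surface lists lie to the right and chaperone, glycolysis and proteasome lists to the left. The 26 were taken from both ends of a ranking by share higher less share lower, so the choice fixed this split. The other lists of the 53, in between or with few members, are not shown.

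The direction of change ran with gene length. Among 1536 genes under 500 exonic bases, 5.53% were higher and 27% lower, with a median of -0.22. Among 1503 genes of 500 to under 1000 bases, 6.45% were higher and 48.2% lower, with a median of -0.28 (15.4% and 22% with library totals, median -0.03), so the share of lower genes did not fall steadily with length. Among 400 genes of 3000 to under 5000 bases, 69.0% were higher and 3.25% lower, with a median of 0.43, and among 93 genes of at least 5000 bases 69.9% were higher and 6.45% lower, with a median of 0.71. The median of this last class lay between 0.54 and 0.87 over the 4 pairs of a set2Δ with a WT library, was 0.60 without WT replicate 2 and 0.96 with library totals. Among genes of at least 3000 bases, the median was 0.87 at a mean FPKM (fragments scaled by exon length and library total) under 10. It was 0.56 at 10 to 30 FPKM, 0.26 at 30 to 100 and -0.13 at 100 to 300. Of 272 such genes at 10 to 30 FPKM, 80.5% were higher and 1.10% lower. Of 20 such genes at 100 to 300 FPKM, 6 were higher and 8 lower. ACC1 and FAS2, given above, are long genes that fell.

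The share of all counts in genes of at least 3000 bases was 6.78% and 7.05% in the set2Δ 3 h libraries and 5.24% and 4.52% in the WT 3 h libraries. The WT 3 h libraries were the lowest of all 24, since the other 22 lay between 5.88% and 8.77%. Whether RNA length or integrity in the WT 3 h samples has a part in this was not tested. Of 261 genes with introns in the coding sequence, a short class with a median of 555 exonic bases, 5.75% were higher and 47.9% lower, against 16.9% and 17.6% with library totals. In the fifth of genes nearest a chromosome end (1300 genes), 22.8% were higher and 26.9% lower, and in the fifth farthest from one, 20.5% and 27.7%.

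**Figure D3:**
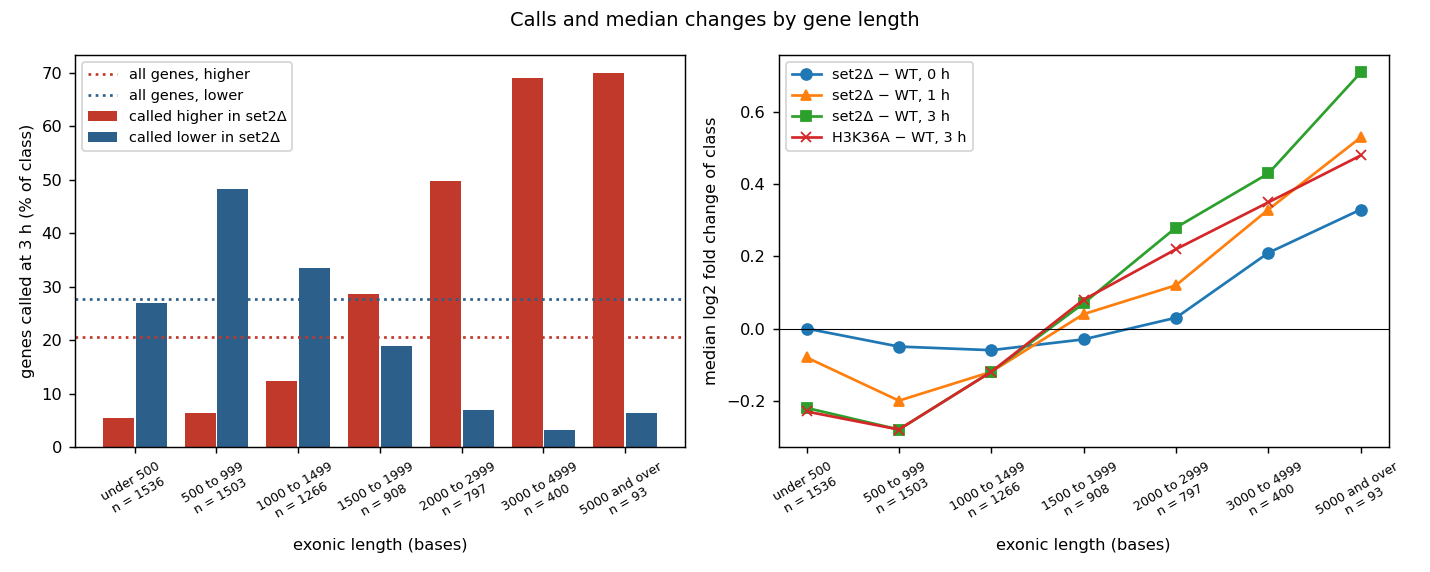
Left, percentage of genes called higher and lower in set2Δ at 3 h by class of exonic length in bases, with dotted lines at the all-gene shares. Right, median log2 change of each class for set2Δ against WT at 0 h, 1 h and 3 h and for H3K36A against WT at 3 h, where the class of at least 5000 bases stands at 0.33, 0.53, 0.71 and 0.48.

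A set of features was all but silent in WT at 3 h and read in set2Δ. Taking a WT sum of at most 3 counts and at least 10 counts in each set2Δ library, there were 28 such features, and 12 more lay just outside with a WT sum of 4 to 6. The reverse choice gave 4, which were MEI4, HXT10, SET2 and YKL177W, the last of which overlaps STE3. The 28 summed to 1118 and 1239 counts in set2Δ and to 13 and 19 counts in WT, values that the choice fixed. Of the 28, 20 are named dubious in the table and 24 overlap a gene on the opposite strand. Those with a role known to the table included IME4 and PUL3, given above, the iron reductase gene FRE5, with 48 and 41 counts in set2Δ and 0 and 0 counts in WT (at least 24.8-fold higher), and the hexose transporter relative HXT14, with 14.5 and 14.6 CPM in set2Δ and 0.0 and 0.169 CPM in WT, where 1 count was read in all (a ratio of 171, interval 30.3 to 6780), which overlaps YNL319W. These 3 h values chose the set and are not tested.

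The libraries of 0 h and 1 h had no part in that choice. At 0 h 22 of the 28 were called higher in set2Δ and 0 lower (13.3% and 8.73% of all genes), and at 1 h 27 were higher and 0 lower (20.4% and 27.3%). Their summed counts were 780 and 743 in set2Δ and 58 and 72 in WT at 0 h, and 2320 and 2371 in set2Δ and 132 and 91 in WT at 1 h. H3K36A held 1252 and 1149 counts at 3 h, close to the set2Δ sums, and rph1Δ 39 and 21. Of 22 tested genes on the opposite strand of a member, 11 were higher, 1 lower and the median was 0.19. Among the 22 partners SEF1, opposite YBL065W, stood at 1.24. MKK1, which holds YOR231C-A (51 and 61 counts in set2Δ, 0 and 0 in WT) within it on the other strand, stood at -0.11. The counting told the strands apart: 73 of 83 features that lie wholly inside an intronless feature of the opposite strand held counts, and 0 of 12 inside one of the same strand. Over all 542 dubious open reading frames tested, 11.1% were higher and 8.67% lower at 3 h, beside 20.6% and 27.8% of all genes. By at least 2-fold, 10.9% were higher and 5.72% lower, beside 5.0% and 3.01% of all genes. Their median level was 2.16 FPKM, beside 47.7 FPKM over all genes. Of the 1092 tested genes with a mean FPKM under 10, 10.4% were higher and 5.86% lower by at least 2-fold, near the shares of the dubious frames.

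**Figure D4:**
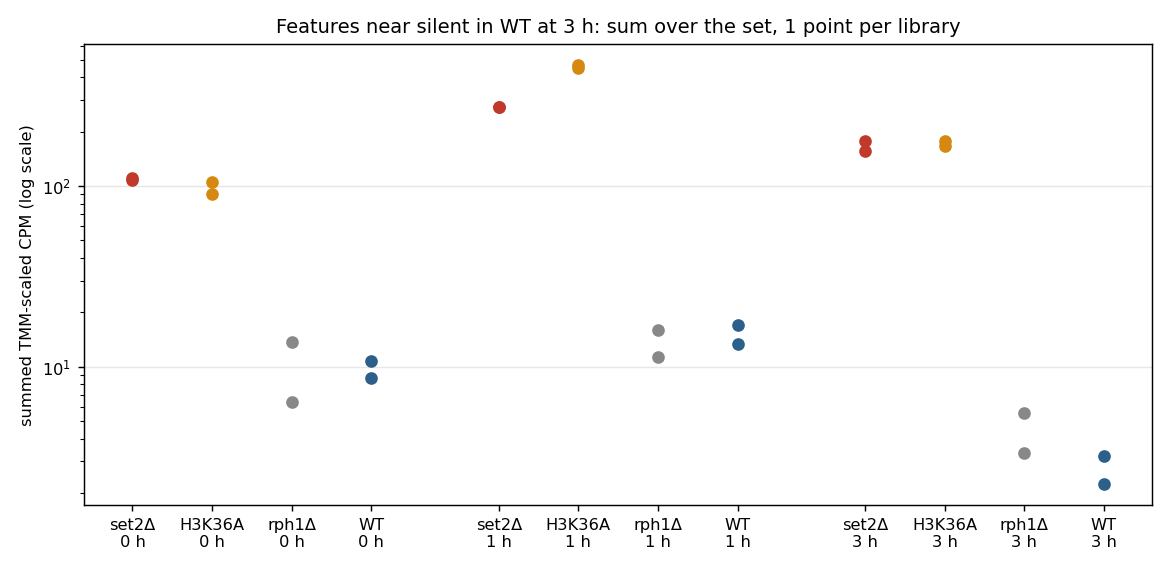
Summed TMM-scaled CPM (log axis) of the 28 features near silent in WT at 3 h, 1 point per library, by genotype and time. The set2Δ and H3K36A libraries lie above the rph1Δ and WT libraries at each time, where the choice fixed the low WT and high set2Δ values at 3 h and so in part every comparison with them at 3 h.

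The set2Δ effect at 3 h was compared with that at 0 h in rich medium and at 1 h in minimal medium. Of the 1337 genes higher at 3 h, 413 were also higher at 0 h (30.9% of those at 3 h and 47.6% of the 867 at 0 h), and 807 were also higher at 1 h (60.4% and 60.7% of the 1329). Of the 1811 lower at 3 h, 237 were also lower at 0 h (13.1% and 41.7% of the 568) and 1070 at 1 h (59.1% and 60.2% of the 1777). Opposite calls were also made: 179 of the genes lower at 3 h were higher at 0 h (9.88%), and 86 of those higher at 3 h were lower at 0 h (6.43%), where 13.3% of all genes were higher and 8.73% lower at 0 h. Against 1 h the opposite calls were 67 (3.7%) and 94 (7.03%), where 20.4% of all genes were higher and 27.3% lower. In the test of the difference, the effect at 3 h exceeded that at 0 h for 883 genes (13.6%) and was below it for 1240 (19.1%), and it exceeded that at 1 h for 696 (10.7%) and was below it for 686 (10.5%).

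Stress genes stood higher in set2Δ at 0 h and lower at 1 h and 3 h. At 0 h 37 of 47 general stress genes were higher in set2Δ and 2 lower (median 0.67), at 1 h 2 were higher and 29 lower (median -0.33), and at 3 h the difference from the 0 h effect was called for 41 in the lower direction and 2 in the higher. Of 25 chaperone genes, 21 were higher at 0 h (median 0.67), 20 were lower and 2 higher at 1 h (median -0.46), and 24 were called lower in the difference. The set2Δ 0 h replicates lay far apart, with a chi-square statistic per degree of freedom of 15.4, beside 3.22 in WT 0 h. No list was recounted with a 0 h library left out, so whether these 0 h values rest on 1 library was not tested. HSP30, a membrane chaperone gene, stood at 1.49 ± 0.17 at 0 h and -1.92 ± 0.15 at 3 h, with 223.2 and 192.4 CPM in set2Δ and 713.8 and 857.5 CPM in WT at 3 h. Of 34 genes of G1 and S phase, 3 were higher and 2 lower at 0 h (median -0.03), and 11 were higher and 11 lower at 1 h (median -0.02). The difference from 1 h to 3 h was called higher for 15 of 34 and lower for 2. Of 24 genes of G2 and M phase, 5 were higher and 4 lower at 1 h, and the difference was called higher for 16 and lower for 0.

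Between 1 h and 3 h the effect on ribosome biogenesis genes shrank, and the median of peroxisome genes went from -0.91 to 0.36. At 1 h 80 of 111 biogenesis genes were higher in set2Δ (median 1.02). Of the 111, 74 had a lower effect at 3 h, where 47 were higher and 20 lower (median 0.13). DRS1 stood at -0.48 ± 0.12 at 0 h, 6.07 ± 0.19 at 1 h and 2.90 ± 0.14 at 3 h. Of 19 peroxisome and beta-oxidation genes, 16 were lower at 1 h (median -0.91) and 16 had a higher effect at 3 h, FOX2 standing at -1.04 ± 0.08 at 1 h and 0.67 ± 0.08 at 3 h. Glycolysis kept its direction, with medians of -0.22, -0.84 and -0.97 at 0 h, 1 h and 3 h. INO1 did too, at -1.76 ± 0.11, -1.62 ± 0.10 and -2.24 ± 0.10, as did PUL3, whose set2Δ libraries held 263 and 245 counts at 0 h and 296 and 329 at 1 h, against 3 and 5 and then 5 and 3 in WT.

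**Figure D5:**
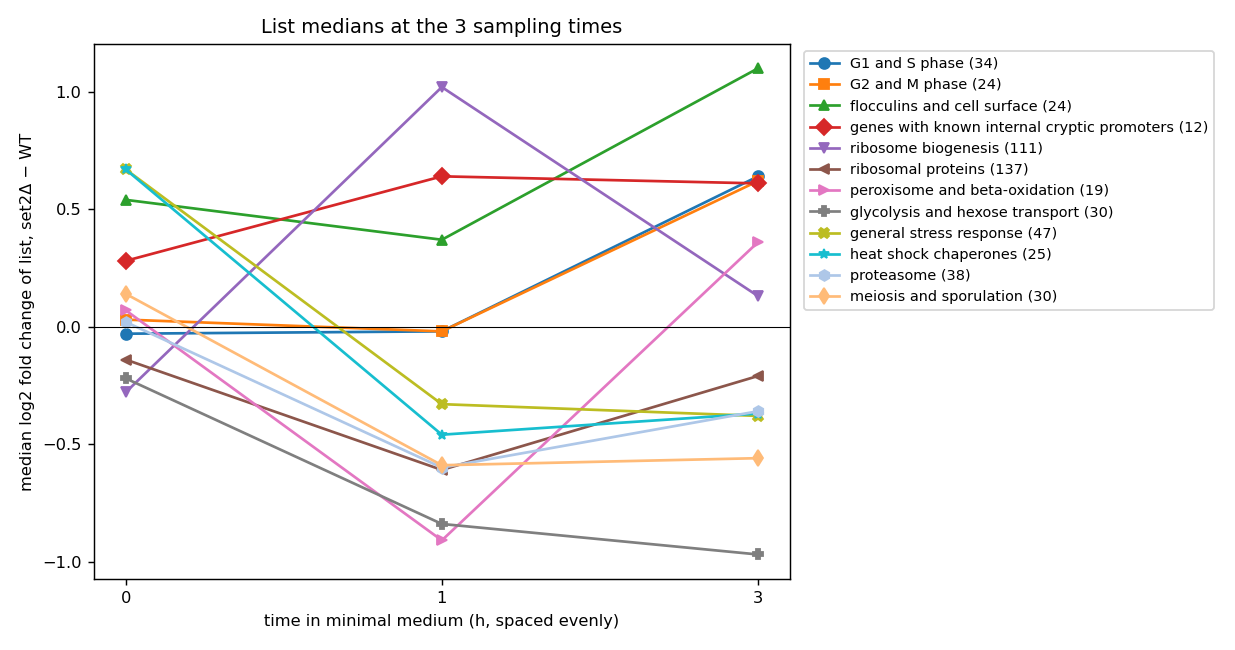
Median log2 change, set2Δ minus WT, of 12 gene lists at 0 h, 1 h and 3 h (evenly spaced), with the number of tested members in brackets. The stress and chaperone lists stand at 0.67 at 0 h and at -0.38 and -0.37 at 3 h, the medians of the cell cycle lists are 0.64 and 0.62 at 3 h, and ribosome biogenesis peaks at 1 h.

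The libraries labelled H3K36A were compared with set2Δ at 3 h. Between set2Δ and H3K36A 145 genes were higher (2.23%) and 160 lower (2.46%). H3K36A against WT gave 1215 higher (18.7%) and 1793 lower (27.6%), with the same WT libraries as the set2Δ comparison, so likeness between both is not counted as a result. INO1 had 324.7 and 305.9 CPM in H3K36A, TDH1 222.8 and 284.9 CPM, DRS1 244.1 and 207.9 CPM and CLN1 52.1 and 37.7 CPM. The 3 highest genes in set2Δ against H3K36A were the histone H3 genes HHT1 and HHT2 and the histone H4 gene HHF2, each with 0 counts in both libraries labelled H3K36A at 3 h. A substitution of 1 residue at HHT1 and HHT2 would leave reads there, and none were counted. The counts do not show which gene copies supply H3 and H4 in these cells, and the labelled substitution was not tested. How the strain was built was not analysed here. Ribosomal protein genes were 37 higher and 0 lower of 137 in set2Δ against H3K36A, with a median of 0.25. Peroxisome genes were 6 higher and 0 lower of 19, phospholipid genes 1 higher and 3 lower of 26, and G2 and M phase genes 0 higher and 5 lower of 24. ASG7 was the lowest gene after SET2, followed by ECM8, with 3.80 and 4.04 CPM in set2Δ and 11.8 and 17.7 CPM in H3K36A.

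The shares of windows that hold a motif were also counted for all 18 motifs searched, with no test. Over all 6263 windows AGGGG was in 22.0%, against 14.6% of those of genes higher by at least 2-fold and 29.7% of those lower by at least 2-fold. ACGCGT was in 6.21% of the windows higher by at least 2-fold and 1.56% of those lower, and GCCGCC in 4.66% and 12%. The Reb1 motif TTACCCG was in 6.96% of all windows, 3.11% of those higher and 2.08% of those lower by at least 2-fold. The Gcn4 motif TGACTC was in 8.38% of all windows, 6.21% of those higher and 6.77% of those lower. The Rpn4 motif GGTGGCA was in 2.92% of all windows, 2.48% of those higher and 0.521% of those lower by at least 2-fold. Among windows of all genes called, it was in 1.88% of those higher and 4.27% of those lower. CCCCT, the core shared by Nrg1 and Mig1, is the reverse complement of AGGGG and so has the same shares. These are descriptions of letters in a window, not of binding.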

How the data were processed

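RNA of 24 libraries (12 groups of 2) was sequenced. Per the submitters' processing notes, cutadapt 1.9.1, HISAT2 2.0.1 and HTSeq 0.6.1 were used with the sacCer3 build. The authors deposited raw read counts per gene and FPKM for each library. The count table gave every test, and the deposited FPKM served for the filter on low values and for levels. The labels' names placed every library in its group. Genes with at least 1 FPKM in 2 or more libraries were kept (6503 tested, 623 left out). Counts were scaled by TMM and all 12 groups were fitted together in edgeR 4.0.16 (R 4.3.3, quasi-likelihood test, Benjamini-Hochberg adjusted p under 0.05, 12 residual degrees of freedom). Totals ran from 6623458 to 7677684 counts per library. The scripts were tested on simulated data. Counting intervals are exact at 95% and, like the floor of 3 counts, cover counting error only. The genes named were the 12 highest and 12 lowest called genes at 3 h with a standard name, non-overlapping libraries and at least 10 FPKM in the higher group, 3 at each end of the other comparisons, and 2 at each end of each list. 1 of the highest is not reported here. Others were picked with their values known. The members and gene lists were chosen with earlier results of these data known. Alternatives were DESeq2 1.42.0, limma 3.58.1 on log2(FPKM + 1), other scalings and filters, only the groups compared, a replicate block and leaving out each library.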

Additional observations from a re-analysis of the deposited data

Results flagged for a closer look

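The effect of the SET2 deletion differed between times by a test of the difference itself. Against 0 h it differed at 3 h for 2123 genes. Of the genes named, on the log2 scale, JIP3 stood at 4.20, DRS1 at 3.39 and OPT2 at 2.96 in the higher direction, and ASG7 at -3.76, DDI2 at -3.63 and HSP30 at -3.41 in the lower. Against 1 h it differed for 1382 genes. FRE5 stood at 6.06, HXT14 at 3.10 and FDH1 at 2.57 in the higher direction, and DRS1 at -3.16, ERB1 at -3.02 and RRP5 at -2.67 in the lower. The fitted values of JIP3, FRE5 and HXT14 depend on the prior count, since WT at 3 h held at most 1 count of each, so their size and rank are not a result. Limma gave -0.19 for FRE5 and -0.29 for HXT14.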

How the results depend on the processing

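Of 100 alternative counts over the 7 comparisons, 91 lay within 1.5 times the reported count, as did 1162 of 1484 for list counts, while 322 did not. Of 12 alternative class shares, 3 moved. At 0 h, fitting only the groups compared gave 656 genes (488 higher, 168 lower), and leaving out a library 888 to 1507 (888 without WT replicate 1, 934 without WT replicate 2). Between set2Δ and H3K36A at 3 h, fitting only these groups gave 735 (378 and 357), removing the length trend 463 (206 and 257), and leaving out a library 85 to 157. Leaving out a library gave 2259 to 3201 genes for set2Δ against WT at 3 h, 2547 to 2616 at 1 h, 1542 to 2493 and 946 to 1697 for the differences from 0 h and from 1 h, and 2075 to 3035 for H3K36A against WT. At 3 h the higher and lower calls were 2316 and 777 with limma, 1393 and 1575 with DESeq2, 1265 and 1060 with only the groups compared, 1127 and 1508 with the length trend removed and 1502 and 1446 with the strict filter. Deviations of same-numbered set2Δ and WT libraries at 3 h correlated at -0.16. This is 1 correlation of replicate differences, so it cannot decide whether the numbers pair the libraries, and other groups were not checked. The replicate block gave 3136 genes (1334 higher, 1802 lower), and a block with crossed numbers in a fit of only the groups compared, added after the data were seen, 2899 (2325 in that fit with no block). Of 3923 alternative values for named genes, 191 lost their call, 54 gained one and 17 changed sign. With the length trend removed PSD2 stood at -0.09, ATH1 at -0.35, HSP78 at -0.21, ECM29 at -0.60, TPS3 at -0.24 and GCN2 at -0.07. With library totals and with limma, ANT1 stood at 0.04, LAT1 at 0.01, RPN5 at 0.22 and ERG20 at 0.04, and with limma CPS1 stood at 0.17. In the difference from 1 h, limma gave -0.19 for FRE5 and -0.29 for HXT14. The cause was not tested. With 2 libraries per group and a common biological variation of 6.73%, the spread between libraries limits precision. Among the groups where it was measured, this spread was widest in set2Δ 0 h and WT 3 h. The rph1Δ groups, and H3K36A at 0 h and 1 h, were not measured.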
